A study of Mus musculus with 33 samples.

Results

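Adamdec1 fibroblasts with Nrg1 and Wnt4 are a small group of stromal cells of the mouse colon, found here in 382 of 17652 cells of 3 single-cell RNA libraries. A cell was a barcode with 1000 or more UMIs (unique molecular identifiers, which count captured RNA molecules), 500 or more genes and no more than 20% of its UMIs from mitochondrial genes. A member held Adamdec1 at 0.4% or more of its UMIs, at least 2 UMIs of Nrg1 and at least 1 UMI of Wnt4. A member also held fewer than 2 UMIs of Sox6 and Bmp3 together, which mark telocytes, and fewer than 2 UMIs of Pecam1 and Cdh5 together, which mark endothelium. The members were set against 5344 cells with the same Adamdec1 level and the same exclusions but no Nrg1 UMI, called Nrg1-zero cells here. In whole mesenchyme they were also set against telocytes, defined by at least 3 UMIs of Sox6, Bmp3 and Bmp7 together and Adamdec1 under 0.4%. Adamdec1, Nrg1, Wnt4, Sox6, Bmp3, Pecam1 and Cdh5 chose the cells, so their levels are described without a test.

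The study sorted mesenchymal cells of the intestine by the level of a Pdgfra reporter and compared the sorted populations. Colon cells came from adult mice of either sex with no treatment, after removal of the outer muscle, release of the epithelium with EDTA and digestion with collagenase. GFP-low replicates 1 and 2 were unstained live cells with low nuclear GFP from PdgfraH2BeGFP mice (JAX strain 007669), in which the reporter stands at the Pdgfra locus. The whole mesenchyme library held live EpCAM- CD45- cells from mice whose genotype is given as control, so the sort and the genotype differ together. Whether each library stands for other animals is not stated in the labels, and the p-values below reflect only the spread among these 3 libraries, which may be technical.

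Fibroblasts of the intestinal lamina propria lie beneath and around the crypts and supply the epithelium with secreted factors. Neuregulin 1, encoded by Nrg1, is a ligand of the ErbB receptors and drives growth of epithelial cells, and Wnt4 is a Wnt ligand. BMP ligands from cells near the top of the crypt promote differentiation, and antagonists such as Gremlin 1 from cells near its base hold BMP signals down. Telocytes are Pdgfra-high subepithelial cells known as a source of BMP ligands and of non-canonical Wnt5a. Adamdec1 encodes a metalloprotease-like protein that marks lamina propria fibroblasts of the colon.

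The libraries of GFP-low replicate 1, GFP-low replicate 2 and whole mesenchyme held 39190629, 52313765 and 41863444 UMIs and 4834, 6025 and 6793 cells. In this library order, which all triplets of values below follow, the members numbered 37, 40 and 305. The Nrg1-zero cells numbered 966, 1128 and 3250. The members were the deeper cells, with a median of 9611, 8094 and 7248 UMIs per cell against 7017.5, 6476.5 and 5002.5 in the Nrg1-zero cells. Cells above the 94th percentile of UMIs of their library made up 29.7%, 12.5% and 24.6% of the members and 8.18%, 3.81% and 4.34% of the Nrg1-zero cells. The median doublet score was lower in the members of the GFP-low libraries, at 0.0437 and 0.0271 against 0.0517 and 0.0482 in their Nrg1-zero cells, and was 0.0574 in both classes of whole mesenchyme. The libraries shared 6 to 11 cell barcodes in pairs, and 0 of the shared barcodes was a member. The members of the 2 GFP-low libraries differed from each other beyond counting noise (chi-square of 5.64 per degree of freedom over 7425 genes).

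The rule required the label's markers Adamdec1, Nrg1 and Wnt4, so their presence in the members was set by the choice of cells. Adamdec1 made up a median of 1.33%, 1.65% and 1.29% of the members' UMIs, against 1.10%, 1.35% and 1.20% in the Nrg1-zero cells. A member held a median of 4, 3 and 5 UMIs of Nrg1, with up to 21, 20 and 48 in a cell. Wnt4, which the rule also used, stood at a median of 4, 5 and 3 UMIs per member. As UMIs per 1000000 UMIs of a summed class, without further scaling (CPM), Wnt4 was at 513, 709 and 487 in the members and 201, 231 and 159 in the Nrg1-zero cells. Nrg1-zero cells, of which the rule required no Wnt4, thus also held it. Their lower level follows in part from the Wnt4 UMI required of each member.

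Pan-fibroblast genes were abundant in the members. Col3a1, a fibrillar collagen, stood at 4785, 3558 and 5611 CPM in the members and 4814, 3978 and 5734 CPM in the Nrg1-zero cells. The summed levels of 12 lamina propria fibroblast markers were 33944, 31156 and 28750 CPM in the members against 39345, 34245 and 33990 CPM in the Nrg1-zero cells. This sum includes Adamdec1, which the rule required of both classes. Adamdec1 alone gave 13533, 16448 and 14080 CPM in the members and 12216, 14025 and 13856 CPM in the Nrg1-zero cells. Markers of most other cells were few. Ptprc, the pan-leukocyte gene Cd45, and Epcam, which marks epithelium, were at 0 UMIs in the members of all 3 libraries. T and innate lymphoid markers summed to 2.79, 76.1 and 8.83 CPM in the members and 55.1, 28.9 and 8.08 CPM in the Nrg1-zero cells. Markers of interstitial cells of Cajal were higher in the members, at 513, 603 and 841 CPM against 185, 242 and 402 CPM. Kit, of that list, was at 0 UMIs in all 3 member sums. Summed blood endothelium markers reached 13.9, 11.7 and 40.9 CPM in the members and 20.2, 8.6 and 54.7 CPM in the Nrg1-zero cells, against 13382 CPM in the endothelium of whole mesenchyme. Igkc, an immunoglobulin gene of plasma cells, was lower in the members, at 156, 70.3 and 37.2 CPM against 404, 179 and 95.1 CPM in the Nrg1-zero cells. Myeloid markers summed to 145, 43.9 and 20.4 CPM in the members and 55.6, 31.1 and 29.8 CPM in the Nrg1-zero cells, and their part in the results was not tested. The telocyte marker sum includes Nrg1 and other genes of the rule. It came to 1602, 1379 and 3007 CPM in the members and 829, 884 and 1119 CPM in the Nrg1-zero cells, with 3789 CPM in the telocytes. With the rule's genes left out, the 13 other telocyte markers summed to 1048, 890 and 1856 CPM in the members and 828, 883 and 1101 CPM in the Nrg1-zero cells, so the classes of GFP-low replicate 2 were close.

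The limits of the rule divide cells with the following values. In whole mesenchyme, the 64 members with exactly 2 Nrg1 UMIs held 204 CPM of Agt, and the 133 cells left out for having exactly 1 held 171 CPM. The 93 members with exactly 1 Wnt4 UMI held 260 CPM of Agt, and the 141 cells left out for having none held 130 CPM. The 16 members with Adamdec1 between 0.4% and 0.5% held 296 CPM of Agt, while the 9 cells between 0.3% and 0.4% held 159 CPM and all 14 cells under 0.4% held 301 CPM. The 64 members with exactly 1 UMI of Sox6 and Bmp3 were rich in Pdgfra, at 929 CPM, and the 63 cells left out for 2 or more held 1018 CPM. Agt was thus higher inside the limits on Nrg1 and Wnt4, and Pdgfra was lower inside the limit on Sox6 and Bmp3.

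The members made up 3.43% of the Adamdec1-high cells in GFP-low replicate 1 (exact 95% binomial interval 2.42% to 4.69%), 3.27% in GFP-low replicate 2 (2.35% to 4.43%) and 7.68% in whole mesenchyme (6.87% to 8.56%). These intervals cover counting error within a library and not the spread between libraries, so they cannot compare the sorts. With cells thinned to 3000 UMIs, so that depth could not add detections, the shares were 1.38%, 1.12% and 5.48%. Cells under 3000 UMIs, 1005, 954 and 2449 of all cells, were left out of these shares. The Adamdec1-high cells then numbered 945, 1072 and 2831. With only 1 whole mesenchyme library, no test between the sorts was made, and the Pdgfra reporter gate can itself set these shares.

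Against the Nrg1-zero cells, the members rose in 461 of 11354 genes (4.06%) and fell in 486 (4.28%), by edgeR's quasi-likelihood test on UMI counts summed per library and class, with the library as a block and an adjusted p under 0.05. The median log2 difference over all genes tested was -0.02. The summed levels of the classes did not overlap over the 3 libraries in 676 genes that were higher in the members (5.95%) and 965 that were lower (8.5%). Agt, Tbx3, Id1, Ces1f and Ces1g were among the genes that rose, and Has1, Ctgf, Il33, Lum and Ccl11 were among those that fell. Of 98 named calls, 55 stayed past the threshold in every alternative that tested them apart from the fit without the block, and none reversed. Values in the next paragraphs are normalised CPM, which are CPM scaled by TMM factors. Each log2 difference is members minus Nrg1-zero cells by the edgeR fit over 3 libraries, with the standard error of that fit. This error is not the spread of the difference among the 3 libraries, which can be much wider. For Fst the fit gave 4.07 ± 0.32, while the libraries taken singly gave 2.61, 0.04 and 4.37.

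Agt encodes angiotensinogen, the precursor of the angiotensin peptides, and was a marker of the label, so its rise is not independent support for it. It stood at 200, 276 and 311 normalised CPM in the members and 51.4, 57.8 and 78.8 in the Nrg1-zero cells. All 3 member values lay above all 3 Nrg1-zero values, a rise of 2.06 ± 0.12 (adjusted p = 3.81e-10). A UMI of Agt was found in 22 of 37, 26 of 40 and 200 of 305 members, or 59.5%, 65.0% and 65.6%, against 20.1%, 18.9% and 19.9% of the Nrg1-zero cells. With every cell thinned to 1000 UMIs the shares were 21.6%, 15.0% and 19.0% of the members and 5.8%, 4.88% and 6.15% of the Nrg1-zero cells, with 0 of 76 telocytes (exact interval up to 4.74%) and 0.77% of endothelial cells, thinned alike, as the background. Among 20 tested genes of the angiotensin, endothelin and vasoactive list, 4 rose and 1 fell. Ednrb, the endothelin B receptor, had 13.0, 5.94 and 293 normalised CPM in the members and 1.58, 0.431 and 29.5 in the Nrg1-zero cells, a rise of 3.30 ± 0.18 (adjusted p = 2.72e-10). Its level was carried by whole mesenchyme, without which the rise was 3.22 with adjusted p = 0.2. Edn3, the endothelin 3 ligand, did not pass (0.31 ± 0.37, adjusted p = 0.733).

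**Figure D1:**
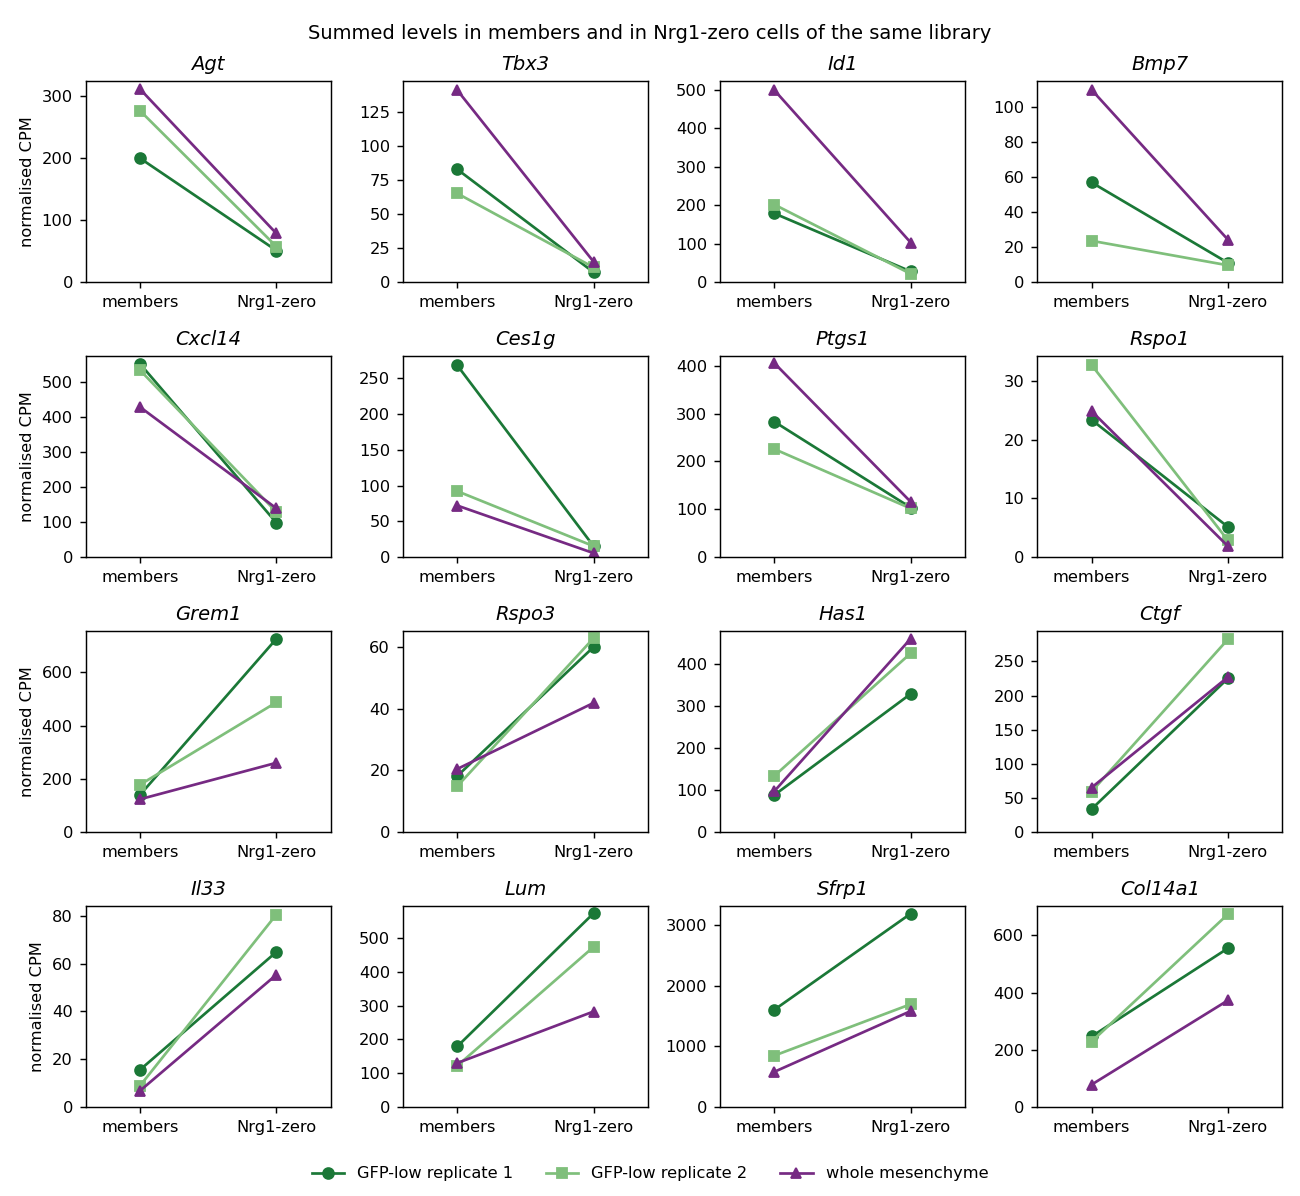
Normalised CPM of 16 genes in each library, with the members on the left and the Nrg1-zero cells on the right of each panel, and 1 line per library. Lines of Agt, Tbx3 and Id1 slope down to the right in all 3 libraries, and those of Has1, Ctgf and Il33 slope up.

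Carboxylesterase genes were among those that rose. Ces1f, a liver-type carboxylesterase, was at 75.3, 71.3 and 43.8 normalised CPM in the members and 0.717, 1.58 and 1.01 in the Nrg1-zero cells (5.73 ± 0.32, adjusted p = 2.72e-10). A UMI of Ces1f was found in only 7 of 37, 6 of 40 and 28 of 305 members, with up to 15, 11 and 8 UMIs in a cell. Its level thus came from few members and is not a trait of most of them. Ces1g, a close relative, was at 267, 92.1 and 72.1 in the members and 15.5, 15.5 and 5.79 in the Nrg1-zero cells (3.54 ± 0.21, adjusted p = 3.81e-10). Ces1f and Ces1g are related genes, and how reads that fit both were counted was not tested. Haptoglobin, Hp, rose by 4.37 ± 0.38 with 125, 11.9 and 38 normalised CPM in the members against 7.17, 2.73 and 0.606 in the Nrg1-zero cells, and by 3.70 without whole mesenchyme. Ucp2, a mitochondrial uncoupling protein, rose by 2.75 ± 0.17 (adjusted p = 9.32e-10), with 67.5, 125 and 94 in the members and 12.2, 14.7 and 14.6 in the Nrg1-zero cells. Neither gene's classes overlapped. Plk2, Prdm1 and Snhg11 rose by 2.64, 2.86 and 2.87. Among the largest falls, Stc2, Adh1 and Entpd2 fell by 2.37, 2.04 and 1.98. Without whole mesenchyme the differences of Stc2 and Adh1 were -1.72 and -1.37.

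BMP ligands and BMP response genes were more often higher than lower in the members. Of 8 tested BMP and GDF ligands, 5 rose (Bmp2, Bmp5, Bmp7, Gdf11 and Gdf15) and 2 fell (Bmp1, which is a protease rather than a signalling ligand, and Bmp6), with a list median of 0.88. Bmp2 stood at 148, 244 and 789 normalised CPM in the members and 94.1, 140 and 225 in the Nrg1-zero cells (1.22 ± 0.17, adjusted p = 4.02e-05). Whole mesenchyme was above the GFP-low libraries in both classes, and the member values overlapped with the Nrg1-zero values. Bmp5 was at 228, 294 and 470 in the members and 131, 208 and 202 in the Nrg1-zero cells (0.89 ± 0.13, adjusted p = 8.26e-05), with no overlap. Bmp7, a telocyte marker, was used to choose the telocytes but neither the members nor the Nrg1-zero cells. It was at 57.1, 23.8 and 110 in the members and 11.2, 9.77 and 24.4 in the Nrg1-zero cells (2.10 ± 0.19, adjusted p = 1.53e-07). Its level was higher in the members of each library, with an overlap across libraries. Bmp4 did not pass (-0.21 ± 0.12, adjusted p = 0.384). Gdf11 lost its call in 6 alternatives.

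Of 11 tested BMP response genes, 5 rose and none fell, with a median of 0.67. Id1 and Id3 encode inhibitors of helix-loop-helix transcription factors, Smad6 an inhibitory SMAD, Atoh8 a helix-loop-helix factor and Bambi a decoy receptor. Id1 was at 179, 202 and 499 normalised CPM in the members and 28.4, 22.1 and 103 in the Nrg1-zero cells (2.59 ± 0.15, adjusted p = 3.81e-10). Atoh8 was at 57.1, 38.6 and 32.1 in the members and 17.5, 11.8 and 12.0 in the Nrg1-zero cells (1.55 ± 0.21, adjusted p = 3.24e-05). Smad6 was at 57.1, 26.7 and 51.6 in the members and 19.9, 11.1 and 18.5 in the Nrg1-zero cells (1.46 ± 0.19, adjusted p = 2.14e-05). The classes did not overlap for any of these 3 genes. Id3 rose by 0.67 and Bambi by 0.92. Since 5 of these genes rose, the 250 bases before the start were searched in Id3, Smad6 and Atoh8, the 3 of the 5 examined, from RefSeq on GRCm38.p6. The 2 windows with a match are shown. The capitals mark GGAGCC or its reverse complement, letters that SMAD1 and SMAD5 are known to bind.
Id3, chr4:136143572-136143821, plus strand: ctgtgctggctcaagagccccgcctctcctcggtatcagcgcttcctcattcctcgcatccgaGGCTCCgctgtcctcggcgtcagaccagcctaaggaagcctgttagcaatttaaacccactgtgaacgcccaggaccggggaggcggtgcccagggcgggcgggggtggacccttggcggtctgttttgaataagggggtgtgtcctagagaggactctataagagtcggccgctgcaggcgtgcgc
Smad6, chr9:64022060-64022309, minus strand: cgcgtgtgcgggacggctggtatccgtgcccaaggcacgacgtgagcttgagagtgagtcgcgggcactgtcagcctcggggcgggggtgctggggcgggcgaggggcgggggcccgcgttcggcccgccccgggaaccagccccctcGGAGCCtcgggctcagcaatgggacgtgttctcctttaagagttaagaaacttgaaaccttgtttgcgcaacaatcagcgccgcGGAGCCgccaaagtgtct
Smad6 held 2 matches and Id3 held 1, and Atoh8 (chr6:72235578-72235827, minus strand) held 0. The related letters GGCGCC were in 0 of the 3 windows. Over 32851 starts in the table, 26% held GGAGCC and 9.59% held GGCGCC on either strand, so a match in such a window is common.

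BMP antagonists did not move one way. Of 9 tested, 2 rose and 3 fell, with a median of -0.30. Grem1, the antagonist Gremlin 1, was at 140, 178 and 124 normalised CPM in the members and 726, 488 and 261 in the Nrg1-zero cells (-1.55 ± 0.17, adjusted p = 1.54e-06), with no overlap. Against Nrg1-zero cells that held a Wnt4 UMI, Grem1 differed by only -0.56 (adjusted p = 0.063). Chrd and Gpc3 also fell, by 2.48 and 2.24, and without whole mesenchyme the differences were -2.27 and -2.47 with neither past the test. Fst, the activin and BMP antagonist follistatin, was at 7.79, 2.97 and 180 in the members and 0.861, 2.87 and 8.21 in the Nrg1-zero cells (4.07 ± 0.32). Without whole mesenchyme the difference for Fst was 1.67 (adjusted p = 0.71), so the call rested on that library.

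Wnt ligands other than Wnt4 differed in both directions. Of 7 tested, 3 rose (Wnt5a, Wnt5b and Wnt16) and 1 fell (Wnt2b), with a median of 0.71. Wnt5a, a non-canonical ligand, was at 41.5, 68.4 and 141 normalised CPM in the members and 12.2, 28.5 and 33.8 in the Nrg1-zero cells (1.84 ± 0.17, adjusted p = 2.35e-07). Its classes did not overlap. Wnt2b, a canonical ligand, was at 10.4, 23.8 and 9.25 in the members and 26.4, 41.0 and 27.5 in the Nrg1-zero cells (-1.34 ± 0.26, adjusted p = 0.0014). Without whole mesenchyme the differences of Wnt2b and Wnt16 were -0.99 and 2.70, with adjusted p of 0.26 and 0.25. Wnt2 did not pass (-1.46 ± 0.47, adjusted p = 0.0649).

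The R-spondins, which amplify Wnt signals through Lgr receptors, went opposite ways. Rspo1 was at 23.4, 32.7 and 24.8 normalised CPM in the members and 5.16, 2.87 and 1.88 in the Nrg1-zero cells (3.21 ± 0.37, adjusted p = 4.01e-06). Rspo3 was at 18.2, 14.9 and 20.5 in the members and 60.0, 62.8 and 41.8 in the Nrg1-zero cells (-1.33 ± 0.21, adjusted p = 0.000202). Neither gene's classes overlapped, and Rspo3 lost its call against Wnt4-bearing comparison cells (-0.76, adjusted p = 0.064). Sfrp1, a secreted Wnt inhibitor, was at 1602, 847 and 581 in the members and 3184, 1693 and 1580 in the Nrg1-zero cells (-1.15 ± 0.11, adjusted p = 2.42e-07), lower in the members of each library although the values overlapped across libraries. Frzb, another inhibitor, rose by 0.83. None of 9 tested Wnt response genes passed in either direction.

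Among the EGF family ligands, which like neuregulin act on ErbB receptors, 2 of 5 tested rose (Ereg and Nrg2) and 1 fell (Areg). Ereg, epiregulin, was at 883, 657 and 3526 normalised CPM in the members and 484, 545 and 1535 in the Nrg1-zero cells (0.81 ± 0.13, adjusted p = 0.000251). It was higher in the members of each library, while whole mesenchyme was above the GFP-low libraries in both classes and the values overlapped across libraries. Areg, amphiregulin, was at 2.60, 0 and 65.3 in the members and 67.1, 45.7 and 94.6 in the Nrg1-zero cells (-1.09 ± 0.30, adjusted p = 0.0241). The call for Areg was lost without GFP-low replicate 2 (adjusted p = 0.099), and without whole mesenchyme the difference was -5.33. Hbegf did not pass (0.41 ± 0.34, adjusted p = 0.587). Of 10 ErbB receptor and feedback genes, 1 rose (Spry4, 1.12) and 2 fell (Lrig1, -2.38, and Lrig3, -1.65). Without whole mesenchyme none of these calls passed, while the differences were 0.73, -3.24 and -1.50.

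Genes of prostaglandin synthesis were among those that rose. Of 13 tested, 4 rose and 2 fell. Pla2g4a, the phospholipase that releases arachidonic acid, was at 278, 300 and 317 normalised CPM in the members and 119, 103 and 116 in the Nrg1-zero cells (1.41 ± 0.12, adjusted p = 3.79e-08). Ptgs1, the constitutive cyclooxygenase, was at 283, 226 and 405 in the members and 104, 102 and 116 in the Nrg1-zero cells (1.52 ± 0.13, adjusted p = 6.37e-08). Both were higher in every library with no overlap. Ptgs2, the inducible cyclooxygenase, was at 545, 333 and 1986 in the members and 169, 261 and 606 in the Nrg1-zero cells (1.32 ± 0.18, adjusted p = 2.23e-05), again with overlap across libraries. Ptges, a prostaglandin E synthase, rose by 0.76, and Ptgis, the prostacyclin synthase, fell by 0.92. Ptger1, a prostaglandin E receptor, was at 7.79, 11.9 and 7.31 in the members and 68.0, 43.3 and 35.5 in the Nrg1-zero cells (-2.37 ± 0.26, adjusted p = 1.89e-06).

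**Figure D2:**
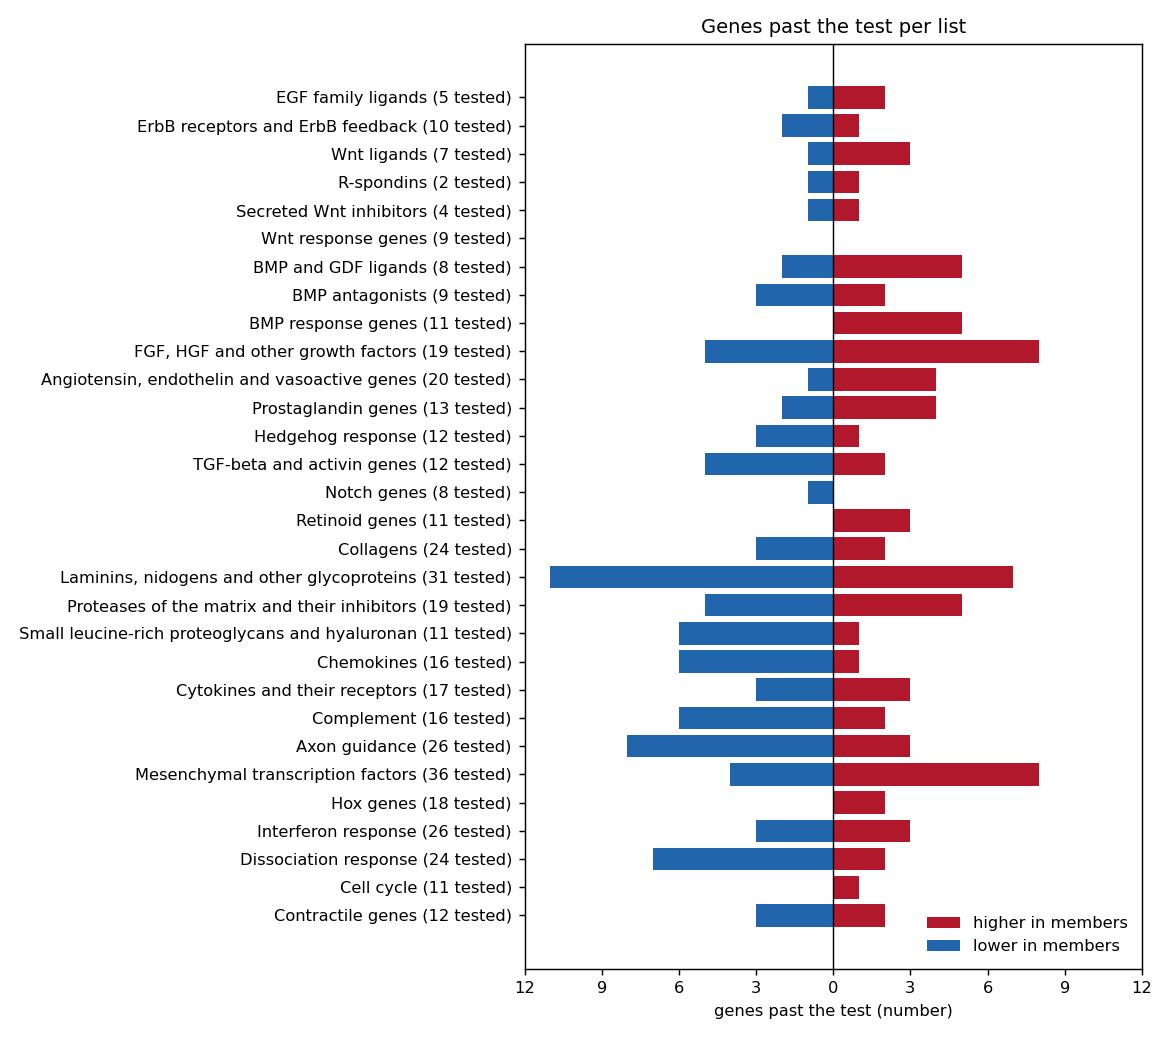
Number of genes per list past the test, higher in the members to the right of 0 and lower to the left. BMP and GDF ligands had 5 higher and 2 lower genes of 8, and the small leucine-rich proteoglycan and hyaluronan list had 1 higher and 6 lower of 11.

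Other growth factors were mixed, with 8 of 19 higher and 5 lower. Ctgf, a matricellular protein, fell furthest, with 33.8, 59.4 and 65.3 normalised CPM in the members against 225, 282 and 227 in the Nrg1-zero cells (-2.08 ± 0.16, adjusted p = 1.1e-08). Fgf7, keratinocyte growth factor, was at 90.9, 59.4 and 177 in the members and 63.1, 57.9 and 59.5 in the Nrg1-zero cells (1.01 ± 0.20, adjusted p = 0.00156), but without whole mesenchyme the difference was 0.33 (adjusted p = 0.67). Fgf10, a ligand from lamina propria fibroblasts, differed by -0.45 ± 0.13 (adjusted p = 0.0302), a call that ended without any of the 3 libraries. Of 12 TGF-beta and activin genes, 2 rose and 5 fell. Tgfbi, a secreted matrix protein, rose by 1.95 ± 0.22, and by 1.16 without whole mesenchyme, while Tgfb2 and Tgfbr3 fell by 0.92 and 0.83. Among Hedgehog response genes, Hhip, a Hedgehog-binding inhibitor, differed by -1.27 ± 0.26 (adjusted p = 0.00266) and Gli1, a transcription factor of the pathway, by -0.67 ± 0.20 (adjusted p = 0.0431), and neither call passed without whole mesenchyme, where the differences were larger (-2.08 and -1.05). Gli1 also lost its call without either GFP-low replicate (adjusted p = 0.0963 and 0.135). Of 11 retinoid genes, 3 rose, including Aldh1a1, a retinaldehyde dehydrogenase, at 101, 116 and 224 in the members and 52.5, 61.5 and 56.1 in the Nrg1-zero cells (1.48 ± 0.18, adjusted p = 7e-06).

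In 2 lists of matrix genes more genes fell than rose, while collagens and matrix proteases showed no clear direction. Over all genes tested, 4.06% rose and 4.28% fell. Of 11 small leucine-rich proteoglycan and hyaluronan genes, 6 fell and 1, Ogn, rose, with a median of -0.94. Lum, the proteoglycan lumican, was at 179, 122 and 130 normalised CPM in the members and 573, 474 and 283 in the Nrg1-zero cells (-1.50 ± 0.14, adjusted p = 2.42e-07). Has1, a hyaluronan synthase, was at 88.3, 134 and 97.4 in the members and 328, 425 and 460 in the Nrg1-zero cells (-2.0 ± 0.14, adjusted p = 3.17e-09). Neither overlapped. Of 31 laminins, nidogens and other glycoproteins, 7 rose and 11 fell, with the microfibril gene Mfap5 down by 1.90. Of 24 collagens, 2 rose and 3 fell. Col14a1 was at 247, 229 and 78.4 in the members and 555, 674 and 373 in the Nrg1-zero cells (-1.70 ± 0.16, adjusted p = 1.61e-07), while the basement membrane collagen Col18a1 was at 600, 493 and 549 in the members and 289, 223 and 322 in the Nrg1-zero cells (0.97 ± 0.11, adjusted p = 3.7e-06). Among 19 matrix proteases and inhibitors, 5 rose and 5 fell, and Plau, urokinase, reached 5.19, 2.97 and 101 in the members against 0.287, 1.29 and 5.79 in the Nrg1-zero cells (3.95 ± 0.30, adjusted p = 1.13e-08), so most of its signal came from whole mesenchyme.

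Chemokines and inflammatory genes were mostly lower or not past the test. Of 16 chemokines, 6 fell and 1 rose. Cxcl14, the chemokine that rose, was at 553, 535 and 430 normalised CPM in the members and 98.7, 129 and 140 in the Nrg1-zero cells (2.02 ± 0.14, adjusted p = 2.59e-09). Ccl11, eotaxin, was at 789, 678 and 521 in the members and 1779, 1635 and 1469 in the Nrg1-zero cells (-1.32 ± 0.10, adjusted p = 2.08e-08). Neither overlapped. Of 17 cytokines and receptors, 3 rose and 3 fell. Il33, an alarmin cytokine, was at 15.6, 8.92 and 6.82 in the members and 64.8, 80.5 and 55.3 in the Nrg1-zero cells (-2.82 ± 0.24, adjusted p = 7.18e-08). Il6 was at 41.5, 98.1 and 69.2 in the members and 103, 192 and 205 in the Nrg1-zero cells (-1.36 ± 0.15, adjusted p = 2.17e-06). Of 16 complement genes, 2 rose (C5ar1 by 2.77 and C6 by 2.62, or 1.58 for C6 without GFP-low replicate 1 and 3.59 without whole mesenchyme) and 6 fell, among them C3, at 808, 559 and 402 in the members and 1419, 1218 and 1190 in the Nrg1-zero cells. Cxcl12 was lower by 0.46 ± 0.10 (adjusted p = 0.00332), a call lost without GFP-low replicate 2 (adjusted p = 0.059).

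Transcription factors and guidance genes also differed. Tbx3, a T-box factor of the telocyte marker list, was at 83.1, 65.4 and 141 normalised CPM in the members and 7.46, 11.1 and 15.2 in the Nrg1-zero cells (3.13 ± 0.18, adjusted p = 3.81e-10), with no overlap. A UMI of Tbx3 was found in 10.8%, 12.5% and 12.8% of the members and 0.83%, 1.06% and 1.66% of the Nrg1-zero cells when all cells were thinned to 1000 UMIs, against 2.63% of telocytes and 3.46% of endothelial cells. Of 36 tested mesenchymal transcription factors, 8 rose and 4 fell, among the falls Foxp2, which was lost against Wnt4-bearing cells, and Bnc2 (-1.71, or -2.59 without whole mesenchyme). Of 26 axon guidance genes, 3 rose and 8 fell, with Slit3 at 28.6, 35.7 and 25.8 in the members and 115, 128 and 66.0 in the Nrg1-zero cells (-1.60 ± 0.18, adjusted p = 1.91e-06). Of 18 Hox genes, 2 rose (Hoxa9, 0.92, and Hoxd11, 0.56) and none fell. Neither passed without whole mesenchyme, where the differences were 0.99 and 0.77, and Hoxd11 also lost its call without GFP-low replicate 1 (adjusted p = 0.325). Of 24 genes of the dissociation response, a stress programme set off by tissue digestion, 2 rose and 7 fell. Atf3, a stress factor, was at 267, 562 and 951 in the members and 534, 1293 and 1441 in the Nrg1-zero cells (-0.91 ± 0.12, adjusted p = 1.92e-05), lower in the members of each library. Interferon genes had 3 of 26 higher and 3 lower, and cell cycle genes 1 of 11 higher.

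Marker lists of fibroblast types differed in direction. Of 11 tested telocyte markers, 6 rose and 1 fell, and of 11 tested markers of Cd81 fibroblasts, also called trophocytes, 1 rose and 6 fell. The lamina propria fibroblast list, the members' own, gave the same count, with 1 higher and 6 lower of 11 tested and a median of -0.45. F3, a telocyte marker that encodes tissue factor, was at 28.6, 32.7 and 275 normalised CPM in the members and 21.1, 42.5 and 89.4 in the Nrg1-zero cells (1.13 ± 0.22, adjusted p = 0.0018). Pdgfra was at 145, 172 and 662 in the members and 107, 145 and 344 in the Nrg1-zero cells (0.63 ± 0.14, adjusted p = 0.00383), and the call was lost without whole mesenchyme (adjusted p = 0.37). Foxl1, a telocyte transcription factor, and Cd81 did not pass (adjusted p = 0.481 and 0.262). The sums of smooth muscle markers, at 496, 231 and 688 CPM in the members and 331, 377 and 934 CPM in the Nrg1-zero cells, had no single direction, although Des, a muscle intermediate filament, rose by 1.56 ± 0.16. The part of telocyte or muscle RNA in the results was not tested.

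In whole mesenchyme, levels of several of these genes, chosen after their values were seen, were graded along the Nrg1 count of the cells. The Nrg1 count also chose the classes, so these grades largely repeat the comparison above and are not separate support for it. In Adamdec1-high cells of whole mesenchyme with 0, 1, 2, 3 to 4, 5 to 9 and at least 10 Nrg1 UMIs (3250, 274, 114, 111, 116 and 105 cells, with no requirement on Wnt4), Agt stood at 76.3, 149, 168, 203, 298 and 343 CPM. Tbx3 stood at 14.7, 53.8, 79.1, 98.7, 166 and 170 CPM, and Id1 at 100, 234, 334, 413, 483 and 684 CPM. Over the same grades Ccl11 stood at 1424, 758, 766, 598, 538 and 363 CPM, and Sfrp1 at 1531, 1001, 870, 693, 537 and 375 CPM. The grades of the GFP-low libraries held 3 to 67 cells above 0 Nrg1 UMIs and were less even, with Agt at 54.7, 113, 175, 142, 209 and 221 CPM in replicate 1 and 55.5, 86.5, 202, 311, 137 and 319 CPM in replicate 2. Not every named gene was graded. Grem1 stood at 252, 217, 218, 325, 151 and 53.5 CPM over the grades of whole mesenchyme and at 773, 786, 263, 166, 1245 and 1295 CPM over those of GFP-low replicate 1, where cells with 5 or more Nrg1 UMIs were above the cells with 0. The median depth of a cell was 5002.5, 4964, 5855.5, 5331, 6825.5 and 7664 UMIs over the grades of whole mesenchyme, so the grades also differ in depth, whose part was not tested.

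**Figure D3:**
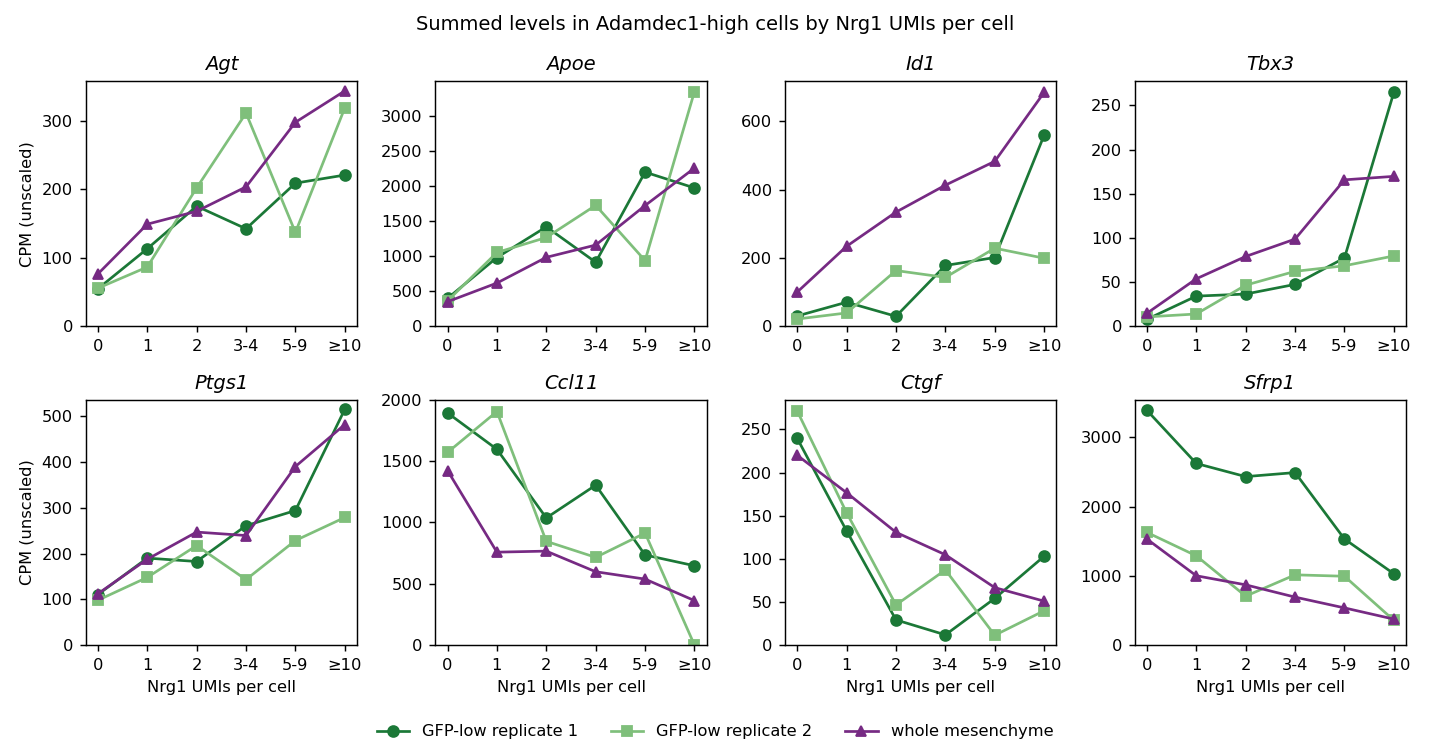
CPM of 8 genes in Adamdec1-high cells against the number of Nrg1 UMIs per cell, 1 line per library. In whole mesenchyme Agt was 76.3 CPM in cells with 0 Nrg1 UMIs and 343 CPM in cells with at least 10, and Ccl11 was 1424 and 363 CPM. The Nrg1 count also chose the members and the Nrg1-zero cells.

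Members of the GFP-low sorts were set beside members of whole mesenchyme as values without a test, with 1 whole mesenchyme library. With both GFP-low replicates at least 2-fold on the same side, 303 of 10627 genes were higher (2.85%) and 340 were lower (3.2%) in the GFP-low members. In the Nrg1-zero cells, 2.61% of 13698 genes were higher and 3.37% lower in the GFP-low libraries by the same limit, and these included 33 (10.9%) of the 303 and 104 (30.6%) of the 340. Thinned to 3000 UMIs, the sums held 13, 12 and 155 members, and 972 of 6418 genes were higher and 180 lower. A sum of 0 UMIs was set to 3 for the fold. In such small GFP-low sums this can by itself place a gene among the higher ones. The changed balance of directions is therefore not read as a difference between the cells. Several genes described above were among the lower ones. Bmp2 was at 159 and 240 CPM in the GFP-low members and 753 CPM in the whole mesenchyme members, Ereg at 948 and 647 CPM in the GFP-low members and 3363 CPM in the whole mesenchyme members. Ptgs2 was at 585 and 328 CPM in the GFP-low members and 1894 CPM in the whole mesenchyme members. Fst was at 8.36 and 2.93 CPM in the GFP-low members and 171 CPM in the whole mesenchyme members, and Ednrb at 13.9 and 5.86 CPM in the GFP-low members and 279 CPM in the whole mesenchyme members. Pdgfra itself, at whose locus the sorted reporter stands, was at 156 and 170 CPM in the GFP-low members and 631 CPM in the whole mesenchyme members. Ereg, Ptgs2, Fst, Ednrb and Pdgfra were also at least 2-fold lower in the GFP-low Nrg1-zero cells, for example Ereg at 515 and 524 CPM in the GFP-low Nrg1-zero cells and 1487 CPM in those of whole mesenchyme. Bmp2 was not, at 100.2 and 134 CPM in the GFP-low Nrg1-zero cells and 218 CPM in those of whole mesenchyme. Among the higher genes were Fgf10, at 128 and 129 CPM in the GFP-low members and 63.7 CPM in the whole mesenchyme members. Osr1, a transcription factor, was at 75.2 and 73.2 CPM in the GFP-low members and 15.3 CPM in the whole mesenchyme members. Xist, the X-inactivation RNA, was at 0 and 0 CPM in the GFP-low members and 294 CPM in the whole mesenchyme members, so sort, genotype and the sex of the mice cannot be told apart.

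Whether the difference between members and Nrg1-zero cells itself depended on the sort was tested by an interaction term. Of 11354 genes, the class difference was higher in the GFP-low libraries for 3 (0.0264%) and lower for 17 (0.15%), with 586 at an unadjusted p under 0.05 and 1 called by DESeq2. Sparcl1, a secreted glycoprotein, was at 59.7 and 35.7 normalised CPM in the GFP-low members against 333 and 161 in their Nrg1-zero cells, and at 308 in the whole mesenchyme members against 174 in the Nrg1-zero cells there (interaction -3.20 ± 0.26, adjusted p = 9.86e-08). Cxcl13, a B cell chemokine, was at 67.5 and 35.7 in the GFP-low members against 103 and 74.6 in their Nrg1-zero cells, and at 306 in the whole mesenchyme members against 111 in the Nrg1-zero cells there (interaction -2.25 ± 0.27, adjusted p = 6.08e-05). Both genes stood lower in the members than in the Nrg1-zero cells of the GFP-low libraries, and higher in those of whole mesenchyme. The spread behind this test comes from 2 GFP-low libraries.

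**Figure D4:**
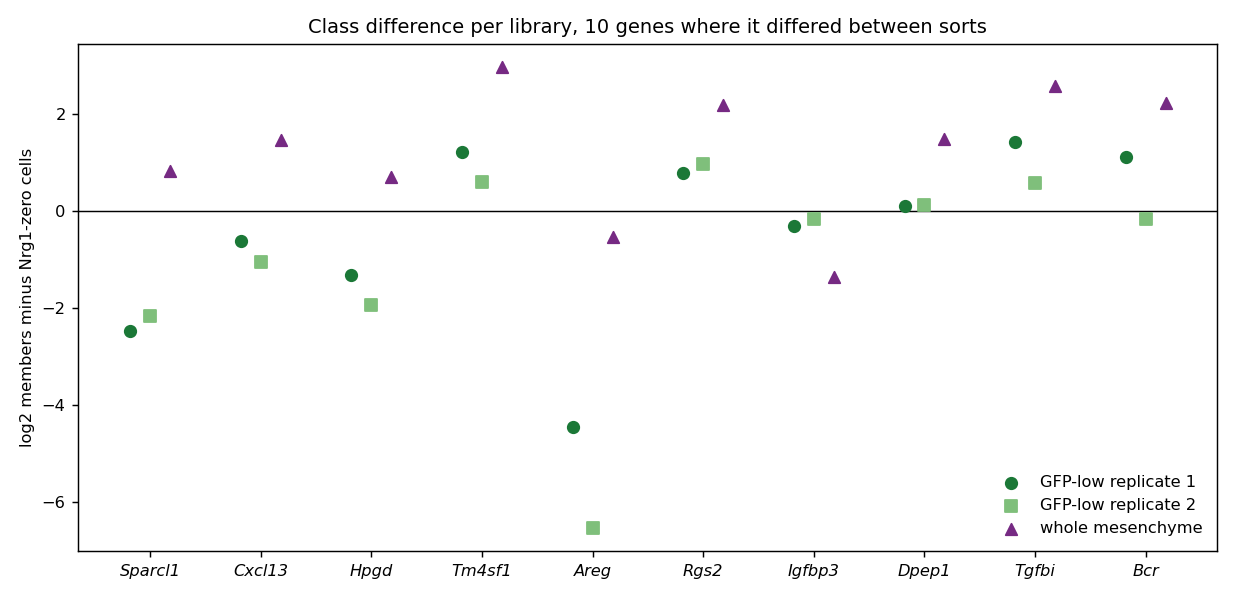
Difference between members and Nrg1-zero cells (log2) in each library, 1 point per library, for the 10 genes with the smallest interaction p. Points of Sparcl1 and Cxcl13 lie below 0 in both GFP-low libraries and above 0 in whole mesenchyme.

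In whole mesenchyme, 76 cells fulfilled the telocyte rule, and the comparison with them has no test. Of 693 cells with at least 3 UMIs of Sox6, Bmp3 and Bmp7, 617 held Adamdec1 at 0.4% or more, with a median of 0.952% over all 693. The 76 telocytes had a median of 0.282%, against 0.0498% in the endothelium. At 4-fold or more, 174 of 10447 genes were higher (1.67%) and 223 were lower (2.13%) in the members, with a median log2 difference of -0.12 over all compared. With all 693 cells in place of the 76, 192 of 11748 genes were higher (1.63%) and 220 were lower (1.87%) in the members. Intervals cover counting error only. Agt was at 297 CPM in the members and 16.8 CPM in the telocytes, a ratio of 17.7 (95% interval 8.07 to 48.3), and at 83.0 CPM in all 693 cells. Ereg was at 3363 CPM in the members and 905 CPM in the telocytes (ratio 3.72, 3.32 to 4.17), and Ptgs2 at 1894 CPM in the members and 667 CPM in the telocytes (ratio 2.84, 2.49 to 3.25). Sfrp1 was at 554 CPM in the members and 104 CPM in the telocytes (ratio 5.34, 3.85 to 7.62).

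Telocyte markers lay on both sides of the telocyte level in the members. Of 10 compared, 1 was at least 4-fold higher and 0 at least 4-fold lower, with a median log2 difference of 0.05. Tbx3 was higher, at 135 CPM in the members and 61.7 CPM in the telocytes (ratio 2.19, 1.42 to 3.54), and F3 was lower, at 263 CPM in the members and 555 CPM in the telocytes (ratio 0.473, 0.402 to 0.559). Wnt5a was at 135 CPM in the members and 160 CPM in the telocytes (ratio 0.844, 0.633 to 1.14), an interval that includes equal levels. Bmp5 was at 448 CPM in the members and 555 CPM in the telocytes (ratio 0.808, 0.693 to 0.946), and Pdgfra at 631 CPM in the members and 1149 CPM in the telocytes (ratio 0.55, 0.492 to 0.615). Id1, of the BMP response list, was at 476 CPM in the members and 546 CPM in the telocytes (ratio 0.872, 0.747 to 1.02). Bmp2 was above the telocyte level, at 753 CPM in the members and 448 CPM in the telocytes (ratio 1.68, 1.43 to 1.99). The 76 telocytes also held genes of other cells. Ccl21a, a lymphatic endothelial chemokine, was at 3.25 CPM in the members and 376 CPM in the telocytes, with 1037 CPM in the endothelium. Blood endothelium markers summed to 40.9 CPM in the members and 555 CPM in the telocytes, and the rule limits Pecam1 and Cdh5 of this list in the members only. Smooth muscle markers summed to 688 CPM in the members and 2368 CPM in the telocytes. The part of such cells in the lower genes was not tested.

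**Figure D5:**
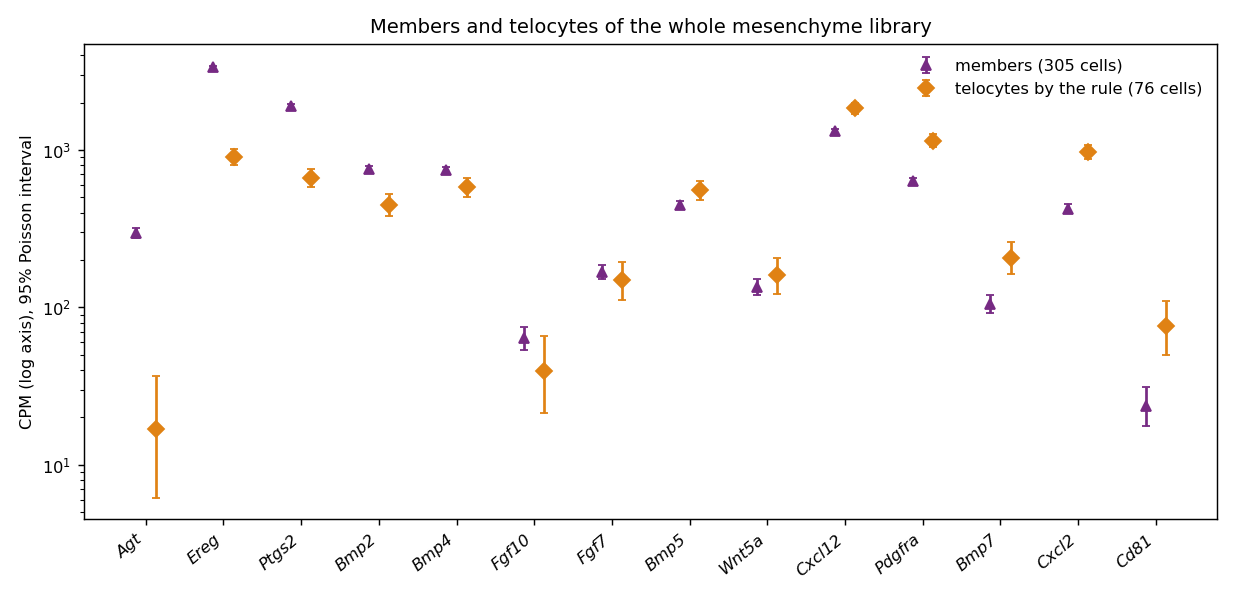
CPM (log axis) of 14 genes in the members and in the telocytes of whole mesenchyme, with exact 95% counting intervals. Bmp7 helped to choose the telocytes, so its level in them was set by the choice of cells. Agt, Ereg, Ptgs2 and Bmp2 are above the telocyte level in the members, and Pdgfra and Bmp5 are below it.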

How the data were processed

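Per the labels, 10x Genomics 3′ single-cell libraries were made from sorted colon cells, and the values deposited by the authors are raw UMI counts per gene and barcode. The submitters' processing notes name Cell Ranger 3.0.2 and mm10 among their tools and builds. The matrices were read as deposited, with whole-number counts checked, and the other samples of the series are not analysed here. The members and gene lists were chosen with earlier results of these data known.

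Counts were summed per library and class and fitted with edgeR 4.0.16 (limma 3.58.1, R 4.3.3): TMM factors, filterByExpr, quasi-likelihood test, Benjamini-Hochberg adjustment over all 11354 genes tested and a threshold of 0.05. The 7 genes of the rule stayed in the library sizes and out of the test. The library was a block, because both sums come from the same library. The interaction of class and sort was tested in the same way. DESeq2 1.42.0 was an alternative. A sum needed at least 20 cells. Scripts used Python 3.11.15, numpy 2.4.6, scipy 1.17.1, pandas 2.3.3, scanpy 1.11.5 and matplotlib 3.10.9, and the fits were tested on simulated data. The direct comparisons of members with telocytes and of members between the sorts were not tested and used CPM, at least 10 UMIs and a 4-fold (telocytes) or 2-fold (sorts) limit. In counting genes past these limits, a sum of 0 UMIs was set to 3. Intervals are exact, at 95%, and cover counting error only.

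Named genes were 22 fixed genes, up to 3 per list with the largest difference past the test, in the same direction in all 3 libraries and with at least 20 UMIs, and the 10 largest changes each way with at least 50 CPM. Other genes of the lists, and those in the closing section, were named after their values were seen. Doublet scores came from Scrublet; since the caller marks too few cells to work as a filter, an alternative left out the 6% of cells with the highest scores. Other alternatives changed the normalization, the low-count filter, the block, the library left out, the depth of the comparison cells and the limits of the rule.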

Additional observations from a re-analysis of the deposited data

Results flagged for a closer look

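The difference between members and Nrg1-zero cells itself differed between the sorts, by the interaction test, for 20 genes, and the 10 with the smallest p are given here as the log2 class difference in the GFP-low libraries minus that in whole mesenchyme. It was lower in the GFP-low libraries for Sparcl1 (-3.20), Cxcl13 (-2.25), Hpgd (-2.32), Tm4sf1 (-1.99) and Areg (-4.81). It was also lower for Rgs2 (-1.33), Dpep1 (-1.38), Tgfbi (-1.43) and Bcr (-1.64), and it was higher for Igfbp3 (1.12). Hpgd, the enzyme that degrades prostaglandins, was at 57.1 and 44.6 normalised CPM in the GFP-low members against 143 and 172 in their Nrg1-zero cells, and at 150 in the whole mesenchyme members against 91.6 in the Nrg1-zero cells there. Areg rests on 1 and 0 UMIs in the GFP-low members. Igfbp3 was at 1140 and 939 normalised CPM in the GFP-low members against 1399 and 1054 in their Nrg1-zero cells, and at 531 in the whole mesenchyme members against 1357 in the Nrg1-zero cells there. Bmp4 was lower in the members of both GFP-low libraries and differed by 0.08 (log2 of normalised CPM + 0.5) in whole mesenchyme, and this difference between sorts was not tested. The sorts also differ in genotype and in the level of Xist, and their parts in these differences cannot be told apart.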

How the results depend on the processing

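None of the 98 named calls reversed. All calls against the Nrg1-zero cells that could be tested again were followed. With DESeq2, 946 of 947 kept their direction and 430 were still past the threshold. Without whole mesenchyme these were 910 and 307 of 912. With depth-matched cells they were 601 and 305 of 603, and with Wnt4-bearing comparison cells 902 and 623 of 903. These fits share counts with the main fit, so a kept direction is not separate support. Leaving out the libraries 1 at a time gave 165 to 464 higher and 169 to 454 lower genes against the Nrg1-zero cells, the lowest counts being those without whole mesenchyme. DESeq2 called 253 higher and 179 lower. Without the replicate block, which pairs the 2 sums of a library, 54 were higher and 25 lower, and 21 of 98 named calls were still past the threshold. Comparison cells matched for depth gave 135 higher and 177 lower of 5087 genes tested, and comparison cells with Wnt4, an alternative chosen after seeing the data like that of all 693 cells as telocytes, gave 290 lower. For the interaction, RLE factors gave 11 higher, DESeq2 0 higher and 1 lower, no low-count filter 18 and 34, and depth-matched cells 0 and 2. The shares of members moved to 1.38%, 1.12% and 5.48% at 3000 UMIs, to 7.69%, 5.72% and 11% with at least 1 Nrg1 UMI, and to 2.31%, 1.96% and 6.07% with at least 3. Without cells above the 94th percentile of UMIs, whole mesenchyme gave 6.19%. Against telocytes, a 2-fold limit gave 879 higher and 1117 lower, and at least 30 UMIs 73 lower. Between the sorts, a 4-fold limit gave 32 higher and 55 lower, at least 30 UMIs 111 higher, and cells thinned to 3000 UMIs 972 higher and 180 lower, with 928 to 1045 higher and 1098 to 1199 lower when 1 GFP-low replicate was left out, which leaves 1 library a side. The counts between thinned sorts rest on small GFP-low sums in which 0 UMIs were set to 3. The causes were not tested. The class test at 3000 UMIs was not run, since 13 and 12 members in the GFP-low libraries are under 20 cells. Depth limits genes under about 10 CPM in the 37 and 40 GFP-low members.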

Other observations

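Some of the most strongly raised genes of the members are in none of the lists, and those given here were chosen after their values were seen. Apoe, apolipoprotein E, was at 1651, 1736 and 1843 normalised CPM in the members of GFP-low replicate 1, GFP-low replicate 2 and whole mesenchyme, against 374, 378 and 362 in the Nrg1-zero cells (log2 2.23 ± 0.10, adjusted p = 1.84e-11 by edgeR). Apoe thus did not overlap between the classes. By the same Nrg1 count that chose the classes, it stood at 350 CPM in whole mesenchyme cells with 0 Nrg1 UMIs and 2255 CPM in cells with at least 10. Trf, transferrin, was at 260, 86.2 and 199 in the members and 37.2, 20.6 and 51.2 in the Nrg1-zero cells (log2 2.25). Plin2, a lipid droplet protein, was at 104, 77.3 and 120 in the members and 15.6, 13.7 and 20.4 in the Nrg1-zero cells (log2 2.59). Bdnf, a neurotrophin, was at 36.4, 2.97 and 31.2 in the members and 0.574, 0.144 and 1.08 in the Nrg1-zero cells, on 79 UMIs in the members.

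Other genes outside the lists were lower in the members. Mgp, matrix Gla protein, was at 597, 1474 and 348 normalised CPM in the members and 2449, 3040 and 1725 in the Nrg1-zero cells (log2 -1.80). Ccdc80, Igfbp6 and Hmcn2 differed by -1.70, -1.72 and -1.75. F2r, the thrombin receptor, and Ctsc, cathepsin C, were higher by 1.53 and 1.59. Rhox5 (3.73) and Ptprr (3.42) were higher too, with adjusted p of 0.158 and 0.0702 without whole mesenchyme.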
